A study of Mus musculus with 6 samples.

Results

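Translation initiation factor genes were examined in cultured mouse cells of the C57BL/6 strain that the labels call MTO, an abbreviation they do not spell out, in a series on colorectal cancer. Every symbol for a protein-coding gene that begins with Eif1, Eif2, Eif3, Eif4, Eif5 or Eif6 was taken, leaving out the Eif2ak kinases, Eif2s3x and Eif2s3y. Of 49 such genes in the annotation, 47 were in the deposited table of 20756 genes and 45 had enough signal to be tested. A control guide (sgC) was carried by 3 libraries, and guides against Prkci and Prkcz, the genes of the atypical protein kinase C isoforms, by the other 3 (sgPrkci/Prkcz). All 6 samples were untreated cultures in B-27 medium with 50 ng/ml EGF, per the labels' protocols. The labels also describe injection of the sgPrkci/Prkcz cells under mouse skin, and the design text speaks of tumors, while the table is marked as in vitro. The sources do not say whether a genotype was a single clone or a pool, nor whether replicates were separate cultures, so p-values cover only the spread among these libraries, possibly technical.

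Translation of most mRNAs starts when eIF2 brings the initiator tRNA to the small ribosomal subunit. There eIF3, a large scaffold of many subunits, acts with eIF1 and eIF1A, which keep the complex open until a start codon is found. The factor eIF5 triggers GTP hydrolysis by eIF2. The cap-binding protein eIF4E, the scaffold eIF4G and the helicase eIF4A form eIF4F, which recruits the mRNA, and the 4E-binding proteins block this by occupying eIF4E when the kinase mTORC1 is inactive. The exchange factor eIF2B recharges eIF2 with GTP, and phosphorylated eIF2 alpha inhibits it, which is how stressed cells lower protein synthesis. Gut epithelium and its tumors renew quickly and have a high demand for protein synthesis.

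Promoters of 4 members are shown because they are the largest called falls with an entry in the RefSeq promoter table, Eif1ad, Eif2s2 and Eif3c, and the sole member that rose, Eif1b. Each line is a RefSeq GRCm38.p6 window from 250 bases before to 50 bases after an annotated start, read on the gene's own strand. The Eif1b window starts from a RefSeq start 374 bases away from the GENCODE gene start. Capitals mark the ETS core CCGGAAG or the E-box CACGTG, searched on both strands; these stretches do not overlap, and the Eif2s2 window holds neither.
Eif1ad, chr19:5366563-5366862, plus strand: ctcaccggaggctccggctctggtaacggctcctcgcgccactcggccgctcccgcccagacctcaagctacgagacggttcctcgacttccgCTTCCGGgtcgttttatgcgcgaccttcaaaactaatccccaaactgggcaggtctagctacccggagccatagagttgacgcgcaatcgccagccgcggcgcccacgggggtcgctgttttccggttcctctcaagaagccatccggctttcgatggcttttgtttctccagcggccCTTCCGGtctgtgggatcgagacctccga
Eif2s2, chr2:154892857-154893156, minus strand: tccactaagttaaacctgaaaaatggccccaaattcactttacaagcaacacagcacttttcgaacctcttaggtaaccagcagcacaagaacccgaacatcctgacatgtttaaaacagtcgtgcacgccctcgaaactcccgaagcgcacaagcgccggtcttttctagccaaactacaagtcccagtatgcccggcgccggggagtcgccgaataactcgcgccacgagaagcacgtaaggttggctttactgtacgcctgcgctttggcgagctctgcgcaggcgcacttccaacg
Eif3c, chr7:126566317-126566616, minus strand: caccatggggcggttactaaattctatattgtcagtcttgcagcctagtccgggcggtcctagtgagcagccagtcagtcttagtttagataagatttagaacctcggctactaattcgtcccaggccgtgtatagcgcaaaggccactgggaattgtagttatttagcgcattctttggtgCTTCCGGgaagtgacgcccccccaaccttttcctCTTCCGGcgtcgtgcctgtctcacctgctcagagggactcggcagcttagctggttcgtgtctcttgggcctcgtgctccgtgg
Eif1b, chr9:120492356-120492655, plus strand: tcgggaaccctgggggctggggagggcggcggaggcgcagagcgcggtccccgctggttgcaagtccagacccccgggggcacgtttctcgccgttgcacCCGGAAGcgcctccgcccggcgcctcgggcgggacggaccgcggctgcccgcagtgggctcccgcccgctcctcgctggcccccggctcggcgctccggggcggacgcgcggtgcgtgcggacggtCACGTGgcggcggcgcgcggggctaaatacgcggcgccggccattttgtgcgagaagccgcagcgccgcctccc
Of the 49 members, 37 had a window in the table. The ETS motif was first searched as CCGGAAGT, which stood in 6 of these 37 and in 5.54% of 16521 promoters of protein-coding genes. After those matches had been seen it was shortened to the core CCGGAAG, which stood in 13 of 37 and in 12.3% of all, so the shorter form is a choice made on these data. The E-box stood in 8 of 37 and in 8.08% of all, and the amino acid response element TGATGNAA in 0 of 37 and in 3.52%. A longer NRF1 motif stood in 1 of 37 (Eif3k) and in 1.38% of all, and a longer YY1 motif in 0 of 37 and in 1.03%. A C followed by 4 pyrimidines at the annotated start, the pattern of mRNAs under mTORC1 control, stood in 1 of 37 (Eif3f) and in 2.19% of all. The E-box genes were Eif1b, which rose, Eif3a, Eif3f and Eif4g1, which fell, Eif3k, Eif4a1 and Eif4h, which passed no threshold, and the untested Eif5a2. For Eif4g1 the window was set on a RefSeq start 4414 bases away from the GENCODE gene start. These matches are letters in a window and were not tested against the expression values.

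Values are CPM, counts per 1000000 reads assigned to genes, from a 3′ tag kit that reads near the end of each transcript. Depth moved with genotype, at 2821908 to 3048170 reads per sgC library and 1543826 to 1808292 per sgPrkci/Prkcz library. Prkci stood at 46.6, 54.5 and 63.8 CPM in sgC and at 55.1, 54.2 and 53.8 in sgPrkci/Prkcz, and Prkcz at 6.37, 5.58 and 4.96 CPM against 3.98, 1.66 and 0.648. Where the guides cut is not stated, and tags at the 3′ end do not check the loss of protein. All 6 epithelial markers examined were tested (Epcam, Cdh1, Krt8, Krt18, Krt19 and Cldn7), among which Epcam rose (0.52) and Krt18 fell (-0.21), by the limma test described below, while with the median change of all genes moved to 0, and with edgeR, Epcam and Krt8 rose and 0 fell. Their summed level was 3352 to 3894 CPM in sgC and 3561 to 4025 in sgPrkci/Prkcz. The 5 fibroblast genes in the table summed to 0.328 to 2.35 CPM in sgC and 0.553 to 0.648 in sgPrkci/Prkcz, of 3 endothelial genes Pecam1 and Cdh5 were at 0 reads and Kdr had 1 read, and Ptprc and Cd68 summed to 5.25 to 7.38 CPM against 7.74 to 14.3.

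Initiation factor genes were on balance lower in sgPrkci/Prkcz: 23 of 45 tested members fell, 1 rose and 21 passed no threshold. The falls were largest for Eif1ad, the inhibitor gene Eif4ebp1, the eIF2B subunit gene Eif2b3, the eIF2 beta gene Eif2s2 and the eIF3 core gene Eif3c, while most genes of the cap-binding complex passed no threshold. Calls rest on limma over all 12207 tested genes with Benjamini-Hochberg (BH) adjustment at 0.05, and a log2 fold change is the level in sgPrkci/Prkcz less that in sgC on the log2(CPM + 1) scale. Among all tested genes 35.2% were called, of which 23.8% fell and 11.4% rose as shares of those tested, against 51.1% and 2.22% of the members. Members are mostly well-counted genes, and among the 3475 tested genes with a mean of at least 50 CPM, a level chosen after the values were seen, 29.0% fell, against 19 of the 35 members at that level. The median log2 fold change was -0.31 for the members and -0.17 for all tested genes.

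The size of this difference depended on scaling. With the median change of all genes moved to 0, called median centring here, 12 members fell and 7 rose. Of all genes 31.8% were then called, with 14.4% fallen and 17.4% risen. The edgeR quasi-likelihood test on recovered reads gave 17 falls and 6 rises among 44 members, against 18.2% and 19.9% of all genes (38.1% called). The 7 members whose fall was called in all 19 alternatives were Eif2s2, Eif4ebp1, Eif3c, Eif3l, Eif1ad, Eif4a3 and Eif6. In 28 of 45 tested members every sgPrkci/Prkcz library was below every sgC library, against 30.0% of all genes. Every one was above in 5 of 45 members, against 15.0% of all.

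**Figure D1:**
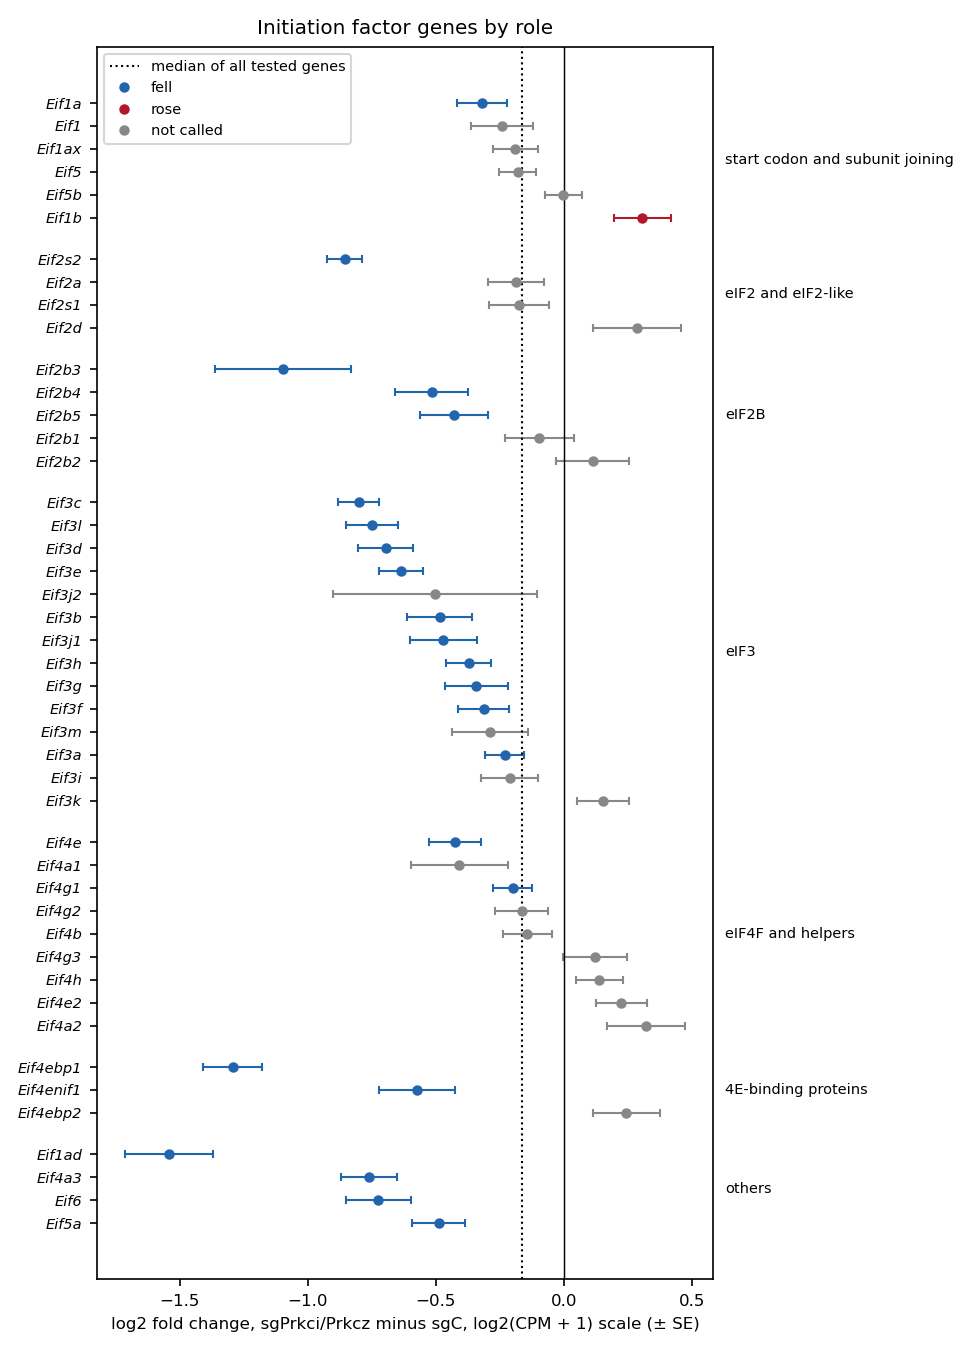
Log2 fold change with its standard error for the 45 tested members, grouped by role; the x axis gives sgPrkci/Prkcz less sgC in log2(CPM + 1) units. Blue points fell, the red point (Eif1b, 0.31) rose and grey points passed no threshold; the dotted line is the median of all tested genes at -0.17, and the 4 tested members of the last group lie to its left.

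The alpha and beta subunit genes of eIF2, the carrier of the initiator tRNA, differed. Its other subunit genes, Eif2s3x and Eif2s3y, were left out of the members. Eif2s2 (chromosome 2, 154871410 to 154892935), which encodes the beta subunit, stood at 1487, 1610 and 1478 CPM in sgC and at 818, 823 and 884 in sgPrkci/Prkcz. The libraries of the genotypes were far apart, and the log2 fold change was -0.86 ± 0.07 (SE; limma, BH-adjusted p = 4.3e-11). Eif2s1, which encodes the alpha subunit that stress kinases phosphorylate, stood at 73.8, 87.3 and 92.1 CPM against 69.9, 71.9 and 81.6, groups that overlapped, with a log2 fold change of -0.18 (limma, BH-adjusted p = 0.268).

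Within each library the ratio of Eif2s2 to Eif2s1 reads, which total depth does not affect, was 20.2, 18.5 and 16.04 in sgC, compared with 11.7, 11.5 and 10.8 in sgPrkci/Prkcz. Eif2a and Eif2d, which encode other proteins able to bring tRNA to the ribosome, had log2 fold changes of -0.19 and 0.29 and passed no threshold (limma, BH-adjusted p = 0.189 and 0.207). The gene a lies across the last kilobase of Eif2s2 on the opposite strand, and the strand setting of the authors' counting is not given in the sources used here.

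Of the 5 genes for eIF2B, the exchange factor of eIF2, 3 fell and 2 passed no threshold, while 23.8% of all tested genes fell. The falls were those of Eif2b3, Eif2b4 and Eif2b5, which encode the gamma, delta and epsilon subunits. Eif2b3 (chromosome 4, 117019402 to 117087306) was the least counted of them, with 33, 47 and 54 reads across sgC libraries and 16, 10 and 8 across the others, or 11.1, 15.4 and 19.1 CPM against 9.09, 5.53 and 5.18. Its groups did not overlap, though the sgC libraries spread widely, and the log2 fold change was -1.10 ± 0.26 (SE; limma, BH-adjusted p = 0.00175), with DESeq2 alone among 19 alternatives losing the call (BH-adjusted p = 0.0551).

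Eif2b4 (chromosome 5, 31187558 to 31193430), a regulatory subunit, stood at 47.6, 55.8 and 53.2 CPM against 36.9, 40.9 and 31.1, a log2 fold change of -0.52 (limma, BH-adjusted p = 0.00585; adjusted p = 0.0618 after median centring). Eif2b5, which encodes the catalytic subunit, went from 62.1 ± 0.708 to 46.2 ± 6.92 CPM (SD, n = 3), a log2 fold change of -0.43 whose call 9 of 19 alternatives kept and the one without sgPrkci/Prkcz replicate 3 did not (limma, BH-adjusted p = 0.0548). Eif2b1 (46.3 ± 1.28 to 43.2 ± 0.954 CPM) and Eif2b2 (46.2 ± 4.23 to 50.2 ± 7.96 CPM) had log2 fold changes of -0.10 and 0.11 and passed no threshold.

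The eIF3 genes formed the largest role group: 10 of 14 tested fell, 4 passed no threshold and 13 had a log2 fold change below 0, with a median of -0.42. Of all tested genes 23.8% fell. After median centring the numbers were 4 fallen and 1 risen, against 14.4% and 17.4% of all tested genes. Eif3c (chromosome 7, 126546455 to 126566411), a core subunit, stood at 758, 815 and 789 CPM in sgC and at 481, 475 and 402 in sgPrkci/Prkcz. Every sgC library was well above every sgPrkci/Prkcz library, and the log2 fold change was -0.80 ± 0.08 (SE; limma, BH-adjusted p = 3.34e-09).

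The other falls of at least 0.5 on the log2 scale were those of Eif3l, Eif3d and Eif3e, all on chromosome 15, of which Eif3d encodes a subunit that can bind the cap of some mRNAs. Eif3l (79075179 to 79094405) stood at 158, 172 and 168 CPM against 99.4, 106 and 89.4, and its log2 fold change was -0.75 ± 0.10 (SE; limma, BH-adjusted p = 1.01e-06). Eif3d (77958998 to 77970813) stood at 111, 116 and 110 CPM against 68.2, 68.0 and 70.6, with little spread within a genotype, and its log2 fold change was -0.70 (limma, BH-adjusted p = 8.73e-06). Eif3e (43250058 to 43282719) stood at 332, 324 and 303 CPM against 218, 200 and 198, with a log2 fold change of -0.64 (limma, BH-adjusted p = 1.01e-06). None of these 3 genes had overlapping groups.

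The remaining called eIF3 genes fell by less: Eif3b (-0.49), Eif3j1 (-0.47), Eif3h (-0.37), Eif3g (-0.34), Eif3f (-0.31) and Eif3a (-0.23). None of the 6 was called after median centring, where the limma adjusted p ran from 0.0557 for Eif3b to 0.557 for Eif3a. Single libraries also decided 4 of them: the call was lost without sgC replicate 2 for Eif3a, Eif3g and Eif3j1, without sgC replicate 3 for Eif3f and Eif3g, without sgPrkci/Prkcz replicate 1 for Eif3a, without replicate 2 for Eif3a and Eif3g, and without replicate 3 for Eif3f and Eif3g (limma, BH-adjusted p from 0.0588 to 0.160). Eif3a, which encodes the largest core subunit, stood at 934, 994 and 895 CPM against 806, 718 and 886, so that 1 sgPrkci/Prkcz library came close to the sgC range. The ratio of Eif3c to Eif3a reads was 0.812, 0.820 and 0.881 in sgC, compared with 0.596, 0.661 and 0.453 in sgPrkci/Prkcz, so that reads of Eif3c were fewer relative to Eif3a in every sgPrkci/Prkcz library.

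Eif3i, Eif3m, Eif3k and Eif3j2 passed no threshold. Eif3k, which encodes a peripheral subunit, was the one with a log2 fold change above 0 (0.15; limma, BH-adjusted p = 0.267), and it stood at 113, 104 and 97.8 CPM in sgC and at 119, 116 and 115 in sgPrkci/Prkcz, higher in all 3. After median centring it was the 1 eIF3 gene called as risen (0.32; limma, BH-adjusted p = 0.0177). Eif3j2 had 5, 10 and 4 reads against 1, 2 and 3, and as a copy of Eif3j1 it may share tags with it.

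**Figure D2:**
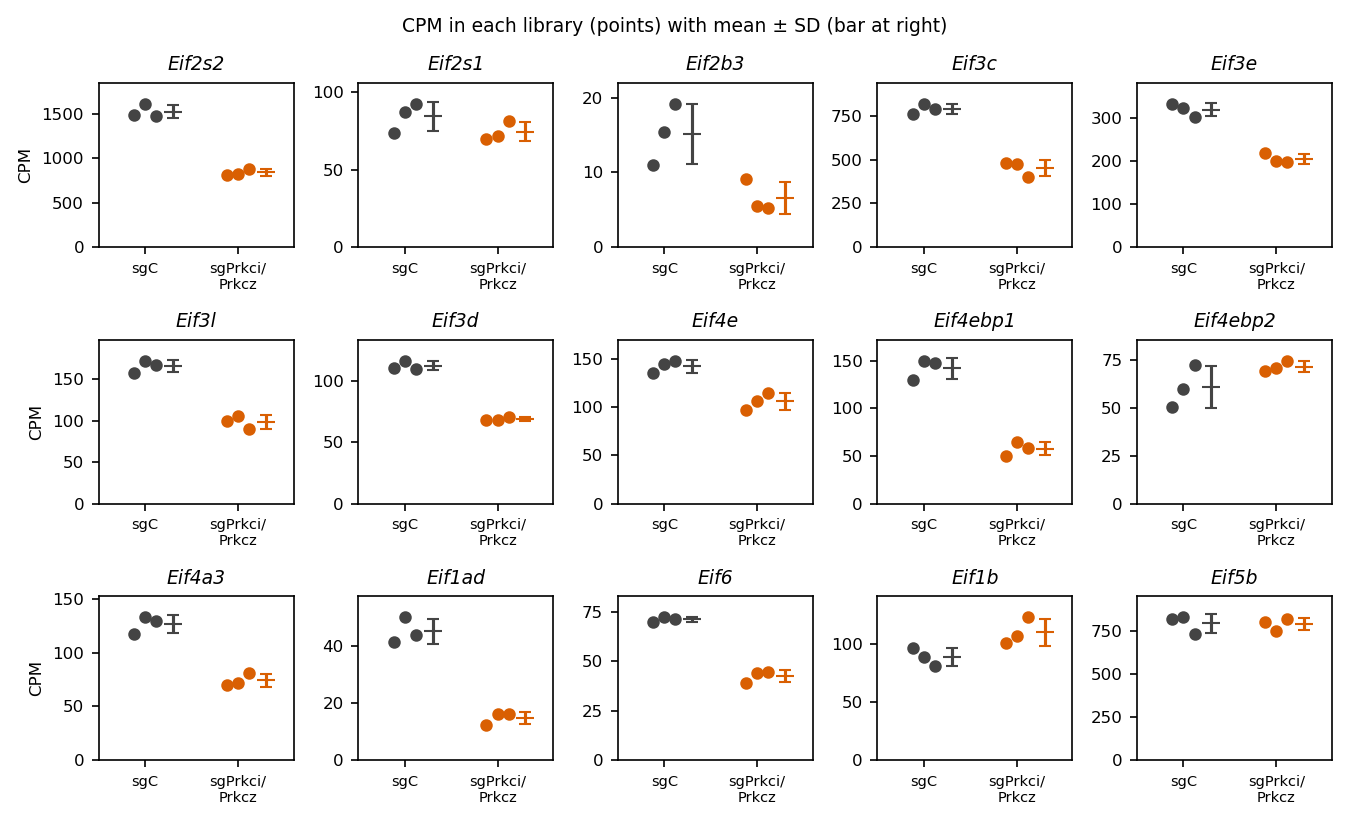
CPM of 15 members in each library (points, 3 per genotype), with the mean and SD as a bar beside them; every y axis starts at 0 and has its own range. Eif2s2 lies at 1478 to 1610 CPM in sgC and 818 to 884 in sgPrkci/Prkcz, while Eif5b and Eif2s1 overlap between genotypes.

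Genes for the cap-binding complex eIF4F and its helpers mostly passed no threshold. Of 9 tested, Eif4e and Eif4g1 fell and, by limma, 0 rose, against 3 rises with edgeR and 3 after median centring. Among all tested genes 23.8% fell and 11.4% rose by limma, while 19.9% rose with edgeR and 17.4% after median centring. At an unadjusted limma p under 0.05, Eif4a2 and Eif4e2 were higher, though neither was called after adjustment. Outside this group, Eif5 and Eif1ax were lower at that level and likewise not called. The share of all genes at that level was not taken. Eif4e (chromosome 3, 138526179 to 138559696), which encodes the cap-binding protein, stood at 135, 145 and 148 CPM in sgC and at 97.1, 106 and 115 in sgPrkci/Prkcz. The groups did not overlap, and the log2 fold change was -0.43 ± 0.10 (SE; limma, BH-adjusted p = 0.0016; adjusted p = 0.0506 after median centring). The fall of Eif4g1, the main scaffold, was small, from 542 ± 38.3 to 471 ± 14.0 CPM (SD, n = 3; log2 fold change -0.20), and 6 of 19 alternatives kept it; leaving out any library but sgC replicate 1 ended the call. Without sgC replicate 1, the lowest of the 3 sgC libraries for Eif4a1 and Eif4g2, 4 genes of the group fell. Eif4a1 was then at -0.65 and Eif4g2 at -0.33 (limma, BH-adjusted p = 8.78e-05 and 0.0015). That fit called 3840 of all genes, rises and falls together, against 4300 in the main test.

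Several eIF4 genes were level or higher, and their calls turned on scaling. Eif4e2, which encodes a cap-binding homolog that represses translation of bound mRNAs, stood at 105, 109 and 106 CPM against 121, 129 and 125, higher in every sgPrkci/Prkcz library. Its log2 fold change was 0.22 (limma, BH-adjusted p = 0.0807), and 0.39 after median centring (adjusted p = 0.00298). Both edgeR and DESeq2 called it (BH-adjusted p = 0.00346 and 0.0187). With neighbourhood medians removed it was 0.11 and with chromosome medians removed 0.13, neither called (limma, BH-adjusted p = 0.474 and 0.367). The helicase gene Eif4a2 (32.9 ± 4.86 to 41.1 ± 2.58 CPM, 0.32) and its cofactor gene Eif4h (189 ± 13.0 to 208 ± 8.68 CPM, 0.14) were likewise higher in all 3 libraries and were called after median centring (limma, BH-adjusted p = 0.0146 and 0.0102), with edgeR (BH-adjusted p = 0.0159 and 0.0121) and with neighbourhood medians removed (limma, BH-adjusted p = 0.0104 and 0.0153), and not in the main limma test; DESeq2 called Eif4h (BH-adjusted p = 0.0385) and not Eif4a2 (BH-adjusted p = 0.0999). Eif4a1, the more studied helicase gene, stood at 72.4, 111 and 130 CPM against 69.9, 94.0 and 67.4, and the wide sgC group overlapped the other (log2 fold change -0.41; limma, BH-adjusted p = 0.117). Eif4g2, Eif4g3 and Eif4b had log2 fold changes of -0.17, 0.12 and -0.14 and passed no threshold.

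Among 3 tested genes for proteins that bind eIF4E, Eif4ebp1 and Eif4enif1 fell and Eif4ebp2 passed no threshold, while 23.8% of all tested genes fell. Eif4ebp1 (chromosome 8, 27260329 to 27276674), the classical target of mTORC1, stood at 129, 150 and 147 CPM in sgC and at 50.0, 64.1 and 58.3 in sgPrkci/Prkcz. The highest sgPrkci/Prkcz library lay below the lowest sgC library, and the log2 fold change was -1.29 ± 0.12 (SE; limma, BH-adjusted p = 5.09e-10). Eif4ebp2, its paralog, stood at 50.3, 60.04 and 72.3 CPM against 69.3, 70.8 and 74.5, with overlapping groups and a log2 fold change of 0.24 (limma, BH-adjusted p = 0.151). After median centring it was called as risen (0.41; limma, BH-adjusted p = 0.016).

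Eif4enif1 (chromosome 11, 3202392 to 3244588), which encodes a transporter of eIF4E into the nucleus, stood at 50.6, 41.7 and 51.4 CPM against 33.5, 32.6 and 29.1, a log2 fold change of -0.57 (limma, BH-adjusted p = 0.00297). Its last kilobase overlaps Drg1 on the opposite strand. It was not called with neighbourhood medians removed, as described below for chromosome 11 (limma, BH-adjusted p = 0.574).

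Ratios between related genes within a library do not depend on the total of reads. In all, 10 such ratios were compared; all pairs were chosen with the values known, and with 3 libraries against 3 a two-sided exact permutation test cannot give a p below 0.1. The Eif4ebp2 to Eif4ebp1 ratio was 0.389, 0.401 and 0.492 in sgC, compared with 1.39, 1.10 and 1.28 in sgPrkci/Prkcz, 2.94-fold higher (exact permutation p = 0.1; BH-adjusted p = 0.167). More reads thus came from Eif4ebp1 in every sgC library and from Eif4ebp2 in every sgPrkci/Prkcz library. The ratio of Eif4ebp1 to Eif4e was 0.958, 1.03 and 0.993 against 0.515, 0.604 and 0.506, and so the inhibitor mRNA was lower relative to its target in all 3 sgPrkci/Prkcz libraries, with the same p. The Eif4e2 to Eif4e ratio was 1.57-fold and the Eif4a2 to Eif4a1 ratio 1.67-fold higher, without overlap between genotypes, and both had the same p. The last kilobase of Eif4a2 overlaps Rfc4 on the opposite strand, and that of Eif4a1 overlaps the snoRNA gene Gm24029 on the same strand. Ratios do not remove shifts shared with chromosomal neighbours, whose part was not tested. Genes within 5 Mb had median log2 fold changes of 0.12 for Eif4e2 and -0.18 for Eif4e. These medians were -0.19 for Eif4a2 and -0.35 for Eif4a1, and -0.22 for Eif4ebp2 and -0.53 for Eif4ebp1. The Eif4g2 to Eif4g1 ratio was 0.801 ± 0.102 in sgC and 0.816 ± 0.00914 in sgPrkci/Prkcz (SD, n = 3; exact permutation p = 1).

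**Figure D3:**
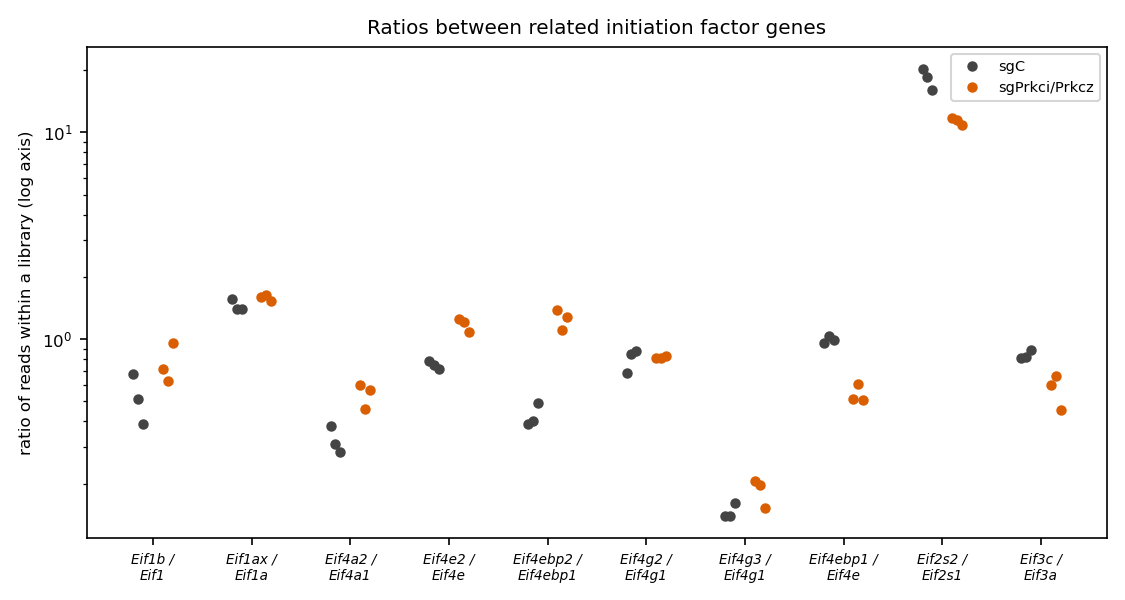
Ratio of reads between pairs of related members within each library (log axis), 3 sgC libraries in grey and 3 sgPrkci/Prkcz libraries in orange. The Eif4ebp2 to Eif4ebp1 ratio lies below 1 in sgC (0.389 to 0.492) and above 1 in sgPrkci/Prkcz (1.10 to 1.39); the Eif4g2 to Eif4g1 ratios overlap.

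Genes that act in start codon choice and subunit joining changed about as much as all tested genes. Their median log2 fold change was -0.19, against -0.17 for all, and 5 of 6 were below 0. Of 6 tested, Eif1a fell and Eif1b rose, while 23.8% of all tested genes fell and 11.4% rose. Eif1b (chromosome 9, 120492232 to 120495330), which encodes a protein closely related to the start codon factor eIF1, stood at 96.5, 89.2 and 81.2 CPM in sgC and at 101, 107 and 123 in sgPrkci/Prkcz. The groups were adjacent without overlap, with a log2 fold change of 0.31 ± 0.11 (SE; limma, BH-adjusted p = 0.0325), and the call was lost when sgC replicate 2 or 3 or sgPrkci/Prkcz replicate 2 or 3 was left out (limma, BH-adjusted p = 0.0774, 0.146, 0.0531 and 0.158). Eif1a (chromosome 18, 46597701 to 46616456) stood at 177, 219 and 192 CPM against 142, 163 and 165, a log2 fold change of -0.32 (limma, BH-adjusted p = 0.0121; adjusted p = 0.25 after median centring). Leaving out sgC replicate 2 or sgPrkci/Prkcz replicate 1 also ended its call (limma, BH-adjusted p = 0.118 and 0.097). Eif1a is a close relative of Eif1ax on the X chromosome (-0.19, adjusted p = 0.0946 by limma), and tags may be shared between them.

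Without sgC replicate 1, 3 genes of the group fell, in a fit that called 3840 of all genes against 4300 in the main test. Eif1, which guards start codon choice, and Eif5, which triggers GTP hydrolysis by eIF2, had log2 fold changes of -0.24 and -0.18 and passed no threshold (limma, BH-adjusted p = 0.126 and 0.0555). Eif5b, the GTPase that joins the ribosomal subunits, stood at 820, 830 and 734 CPM against 802, 753 and 822. The groups overlapped fully, and the log2 fold change of 0.00 had an SE of 0.07 (limma, BH-adjusted p = 0.982).

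The members that act outside the initiation steps, or next to them, fell in all 4 tested cases (Eif1ad, Eif4a3, Eif6 and Eif5a; this grouping was drawn up after read counts had been seen), also after median centring. Of all tested genes 23.8% fell, and 14.4% after median centring. Eif1ad (chromosome 19, 5366741 to 5371526), which encodes a protein with a domain like that of eIF1A, stood at 41.6, 50.2 and 43.9 CPM in sgC and at 12.5, 16.04 and 16.2 in sgPrkci/Prkcz. Its log2 fold change of -1.54 ± 0.17 (SE; limma, BH-adjusted p = 3.91e-08) was the largest of the 45. Reads were 124, 153 and 124 against 22, 29 and 25, so the change was far beyond the spread within a genotype.

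Eif4a3 (chromosome 11, 119288363 to 119300089), the helicase of the exon junction complex, stood at 117, 133 and 130 CPM against 69.9, 71.9 and 81.0, a log2 fold change of -0.76 (limma, BH-adjusted p = 2.66e-06). Eif6 (chromosome 2, 155819832 to 155826925), which keeps the large ribosomal subunit from joining too early, stood at 69.7, 72.2 and 71.6 CPM against 39.2, 44.2 and 44.7, a log2 fold change of -0.73 (limma, BH-adjusted p = 4.59e-05). Both were well separated between genotypes. Eif5a, whose hypusine-bearing protein aids elongation, stood at 170, 233 and 208 CPM against 135, 150 and 146 (log2 fold change -0.49; limma, BH-adjusted p = 0.000502), with sgC replicate 1 nearest to the other genotype. Eif5a2 was at 0 reads in all libraries, which allows up to 0.339 CPM over the sgC group and 0.587 over the sgPrkci/Prkcz group at a floor of 3 reads, and Eif4e3 had 1 read in all. These limits cover counting error only. Eif4e1b and Eif4ebp3 were not analysed here.

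Summed over the 47 members in the table, the level was 9519, 10314 and 9983 CPM in sgC and 7623, 7780 and 7854 in sgPrkci/Prkcz. Such sums are weighted toward well-counted genes. The sgC and sgPrkci/Prkcz means were 1525 and 842 CPM for Eif2s2, 787 and 452 for Eif3c, and 795 and 792 for Eif5b. All 3 sgPrkci/Prkcz sums were lower (exact permutation p = 0.1, two-sided, the smallest that 3 against 3 can give). The eIF3 sum went from 3285 ± 83.6 to 2411 ± 40.9 CPM and that of eIF4F and its helpers from 1825 ± 182 to 1672 ± 55.4 CPM (SD, n = 3), the latter with overlap between genotypes.

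Position along the chromosome moved with these results, and its part in them was not tested beyond the values given here. Chromosomes 11 and 15 held 5 tested members each, and the median log2 fold changes of all tested genes on them were -0.44 and -0.39. On chromosome 15 Eif3d, Eif3e, Eif3h and Eif3l fell and Eif4b passed no threshold, and on chromosome 11 Eif4a3, Eif4enif1 and Eif5a fell. As a closer reference, each member was set beside the median of tested genes within 5 Mb on each side, and 29 of 45 lay below it. With that neighbourhood median removed from every gene, 10 members fell and 4 rose, against 12.9% and 16.6% of all genes (29.5% called).

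Eif1ad, Eif2b3, Eif2s2 and Eif3c fell far below their neighbours, whose medians were -0.05, -0.09, -0.23 and -0.21. Eif4ebp1 had the lowest neighbourhood median (-0.53), and with it removed its log2 fold change was -0.77 (limma, BH-adjusted p = 4.64e-06). Eif3h and Eif1 lay above their neighbours, with medians of -0.46 and -0.47. The falls of Eif3e, Eif3d, Eif5a and Eif4e were not called on this scale (limma, BH-adjusted p = 0.0744, 0.0501, 0.338 and 0.0757).

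**Figure D4:**
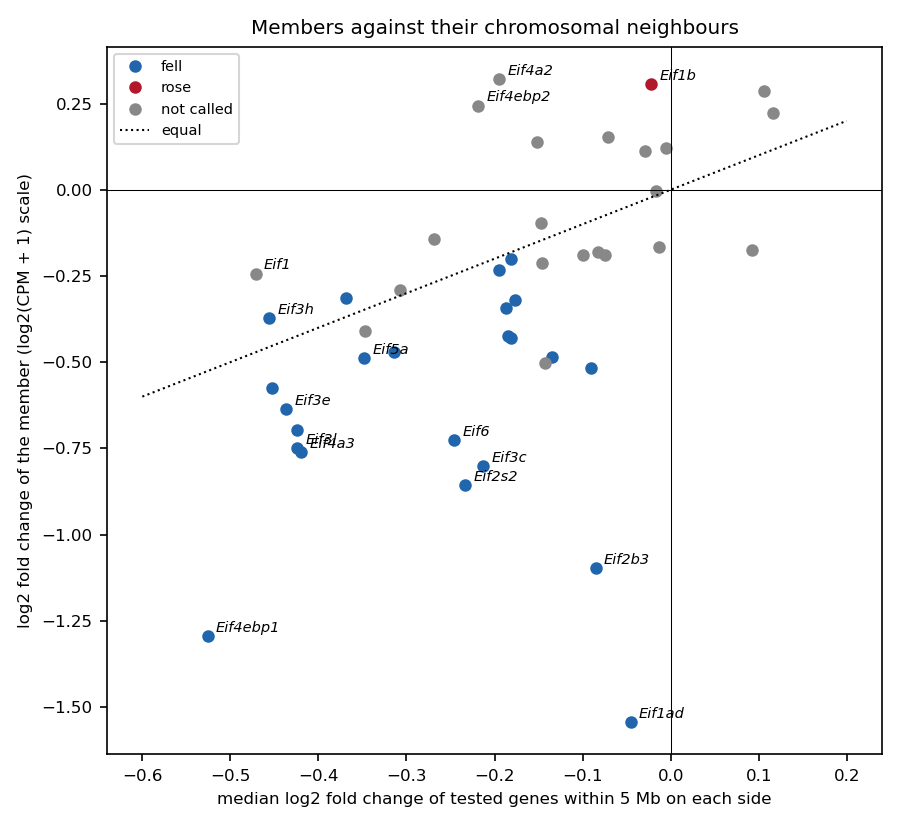
Log2 fold change of each tested member (y axis) against the median log2 fold change of tested genes within 5 Mb on each side (x axis), both on the log2(CPM + 1) scale; the dotted line marks equal values. Eif1ad (-1.54 against -0.05) and Eif2b3 (-1.10 against -0.09) lie far below the line, and Eif4a2 and Eif4ebp2 lie above it.

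Genes that control eIF2 and eIF4E were called about as often as all tested genes, of which 23.8% fell and 11.4% rose (14.4% and 17.4% after median centring). Of 12 tested genes for the eIF2 alpha kinases, their activators and the opposing phosphatases, 3 fell and 0 rose by limma (1 and 1 with edgeR), and after median centring the numbers were 0 and 2. The falls were Gcn1l1, an activator of the amino acid sensing kinase (41.9 ± 3.53 to 28.2 ± 3.29 CPM, -0.56), that kinase, Eif2ak4 (20.7 ± 1.17 to 13.8 ± 2.61 CPM, -0.56), and the phosphatase subunit Ppp1r15a (20.8 ± 5.58 to 13.4 ± 2.71 CPM, -0.59). The median of the list was -0.08, against -0.17 for all tested genes.

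Of 16 genes of mTORC1 and eIF4E control, 4 fell and 1 rose, and 3 and 2 after median centring, again near the shares of all tested genes. Rps6kb1, the S6 kinase gene, stood at 174, 186 and 173 CPM against 94.9, 112 and 108 (log2 fold change -0.76; limma, BH-adjusted p = 6.03e-07). Larp1, which represses mRNAs of the translation machinery, stood at 139, 168 and 163 CPM against 104, 93.5 and 66.7 (-0.84; adjusted p = 1.43e-05 by limma). Rheb, the GTPase that activates mTORC1, went from 175 ± 17.0 to 120 ± 3.65 CPM (-0.53), and all 3 falls were also called after median centring. The gene that rose was Pdcd4, an inhibitor of eIF4A (25.2 ± 6.07 to 35.3 ± 2.99 CPM, 0.49), whose groups overlapped in sgC replicate 1. The list had a median of -0.11.

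Partners of initiation and the steps that follow it were also lower in many cases, and in fewer after median centring. Of all tested genes 23.8% fell and 11.4% rose, and after median centring 14.4% and 17.4%. Of 12 genes for poly(A)-binding and recycling partners 7 fell and 2 rose (4 and 2 after median centring), with a median of -0.27. Abce1, which recycles ribosomes, stood at 166, 217 and 189 CPM against 102, 95.1 and 111 (log2 fold change -0.88; limma, BH-adjusted p = 1.37e-07). Denr, a reinitiation factor (183 ± 16.7 to 120 ± 7.29 CPM, -0.60), and Pabpc1, the main cytoplasmic poly(A)-binding protein gene (3407 ± 127 to 2653 ± 148 CPM, -0.36), fell too, while Paip2, an inhibitor of the poly(A)-binding protein, rose from 97.7 ± 2.95 to 137 ± 8.11 CPM (0.48). Of 14 genes for elongation, termination and hypusination 9 fell and 1 rose (4 and 2 after median centring), among them the release factor gene Etf1 (326 ± 31.6 to 206 ± 12.5 CPM, -0.65), Dohh, the hydroxylase that completes hypusine on eIF5A (30.1 ± 3.76 to 16.6 ± 2.45 CPM, -0.82), and Eef1e1, a scaffold gene of the tRNA synthetase complex (50.9 ± 11.0 to 30.6 ± 3.80 CPM, -0.70).

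These parts were picked for comparison after the values were seen. Set beside other parts of the translation machinery, the initiation factor genes had a median between those of 20 cytosolic aminoacyl-tRNA synthetase genes, which charge tRNAs (17 fell and 0 rose by limma, 0 also with edgeR; median log2 fold change -0.84), and 81 tested cytosolic ribosomal protein genes (22 fell and 8 rose; median -0.06). After median centring the synthetase numbers were 17 and 0, those of the initiation factor genes 12 and 7, and those of the ribosomal protein genes 7 and 23. The differences between these lists were not tested.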

How the data were processed

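RNA of cultured MTO samples was sequenced from the 3′ end (QuantSeq FWD kit, 200 ng input, molecular identifiers described as optional, single reads of 75 bases), per the labels' protocols. The authors deposited CPM values, and each of the 6 columns sums to 1000000. Per the submitters' processing notes, GRCm38 was used; for the aligner, counter, strand setting and handling of identifiers, the tool or setting was not given in the sources used here. Columns were matched to samples by title, and replicate numbers follow accession order. Every value (100%) is a whole multiple of the lowest nonzero value of its library, to a relative tolerance of 1e-06, so whole reads were recovered. One read was worth 0.328 to 0.648 CPM. GENCODE M21 (GRCm38) gave a symbol to 20675 of 20756 identifiers.

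The main test was limma 3.58.1 (R 4.3.3; mean-variance trend, robust) on log2(CPM + 1) with genotype as the factor. A gene entered with 1 CPM or more in 3 or more samples, and fold changes of low genes are understated on this scale. Alternatives were other scalings, pseudocounts, filters, equal depth, each sample left out, and edgeR 4.0.16 (3754 genes called) and DESeq2 1.42.0 on recovered reads. The members and lists were chosen with earlier results of these data known. Chosen only after the values had been seen were the removal of neighbourhood medians, the 50 CPM level, the members placed in each role group, the ratio pairs, the shorter ETS motif, and the synthetase and ribosomal protein lists. Every member is accounted for; full values go to called members with an absolute log2 fold change of 0.5 or more and to the smallest adjusted p per role, and each related list names up to 3 called genes by smallest adjusted p. Outside that rule, other genes named in the text were picked after their values were seen. On simulated data for this comparison over 12328 genes, limma recovered 82% of 100 genes changed 2-fold and 99% of 100 changed 4-fold. It also called 25 genes that had been left unchanged. The changed genes were drawn without the lowest-counted ones.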

Additional observations from a re-analysis of the deposited data

How the results depend on the processing

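Depth was lower in every sgPrkci/Prkcz library, and equal depth left 2 members risen; other pseudocounts and low-value filters moved neither count by over 1.5 times. The main numbers were 23 fallen, 1 risen and a median log2 fold change of -0.31. Fallen members numbered 12 after median centring, 13 with chromosome medians removed, 10 with neighbourhood medians removed (chosen after seeing the data), 14 by limma without trend, 10 by DESeq2 and 18 to 28 with a library left out. Risen members numbered 5, 6, 7, 5 and 4 by quantile normalization, TMM, median centring, chromosome medians and neighbourhood medians, 0 by limma without trend, 6 by edgeR, 3 by DESeq2, and 0 to 1 with a library left out. In the same order the median was -0.25, -0.18, -0.15, -0.11 and -0.12, then -0.16 by edgeR and -0.16 by DESeq2, and -0.38 to -0.25 with a library left out. All genes called, falls and rises together, numbered 4300 in the main test and 2525 by DESeq2. They numbered 3805 by quantile normalization, 3973 by TMM, 3881 after median centring, 3566 with chromosome and 3603 with neighbourhood medians removed. By limma without trend they numbered 2890, by edgeR 3754, at equal depth 3666 and with a library left out 3079 to 3978. In the main test 23.8% of all tested genes fell and 11.4% rose. After median centring these shares were 14.4% and 17.4%.

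In 9 members the sign changed under some setting. By quantile normalization Eif5b was 0.014 and Eif2b1 0.025; by TMM 0.14 and 0.039. After median centring Eif4g2 was 0.00042, Eif5b 0.16, Eif2b1 0.069 and Eif4b 0.023. With chromosome medians removed Eif4g2 was 0.0066, Eif3h 0.016, Eif2b1 0.00056, Eif1 0.20, Eif4b 0.25 and Eif4a1 0.034. With neighbourhood medians removed Eif3h was 0.084, Eif5b 0.014, Eif3m 0.017, Eif2b1 0.051, Eif3f 0.055, Eif1 0.23 and Eif4b 0.13. By edgeR Eif5b was 0.14, Eif2b1 0.044 and Eif4b 0.0021, and by DESeq2 0.14, 0.049 and 0.0065. With a library left out Eif5b ran from -0.059 to 0.033. Of these, Eif3h and Eif3f were called as fallen in the main test; the cause was not tested. No paired analysis was possible because the labels share no replicate numbers between the genotypes.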
